A study of Mus musculus with 4 samples.

Results

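The 9 genes Gli1, Gli2, Gli3, Ptch1, Smo, Hhip, Sufu, Boc and Gas1 were taken by gene name from a table of 20421 genes, and each had 1 row. They were read in brains of mouse embryos at embryonic day 15 on the C57BL/6 strain, in animals labelled FOXM1f/+;Nestin-Cre and in animals labelled WT. FOXM1 is a forkhead transcription factor of the later cell cycle, the series' title speaks of the human gene, and Nestin-Cre drives Cre recombinase in neural progenitors. The submitters list 4 samples, 2 per genotype, whereas the table has 1 column of counts per genotype. The columns are headed F1 for FOXM1f/+;Nestin-Cre and C2 for WT, and which sample or pool each holds is not stated. Of the 2 samples labelled WT, the title of 1 names nestin and that of the other foxm1, so the WT column may come from animals that carry either allele. Every ratio below is thus between 2 libraries, without a replicate check, and the intervals are 95% intervals that cover counting error only.

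Hedgehog signalling is carried by secreted ligands that bind the membrane protein Ptch1 and so release Smo, a membrane protein that Ptch1 otherwise holds inactive. Smo acts in the primary cilium on the zinc finger factors of the Gli family, which Sufu restrains and which activate or repress target genes. In the embryonic forebrain the pathway is known for setting ventral identity and for keeping neural progenitors dividing, and Gli3 is known from mouse mutants to be needed for dorsal structures.

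Depth was alike, with 17856653 reads counted for FOXM1f/+;Nestin-Cre and 17543705 for WT. Mouse Foxm1 had 1289 reads in the FOXM1f/+;Nestin-Cre library and 1139 in the WT library, a ratio of 1.11 (1.03 to 1.21), and no value here measures a human transgene. Xist had 9628 reads in the FOXM1f/+;Nestin-Cre library and 5 in the WT library, while 4 Y-linked genes had 0 reads in the FOXM1f/+;Nestin-Cre library and 202 to 1266 in the WT library. Genotype and sex content cannot be told apart in these libraries. All 6 forebrain genes looked up as a check of the tissue label were read. Of 6 midbrain and hindbrain genes, such as En1 and Hoxb2, 0 had a row among those analysed here.

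By column totals, Gli1, Gli2, Smo, Boc and Gas1 were higher in the FOXM1f/+;Nestin-Cre library beyond counting error, by less than 1.5-fold. The intervals of Gli3, Ptch1, Sufu and Hhip spanned 1. These calls rest on the scale. With radial glia genes setting it, 0 members had intervals above 1 and 2 had intervals below 1. With dividing cell genes setting it, a choice made after seeing the data, 0 lay above, 5 lay below and all 8 log2 ratios were negative. Both scales were taken as exact, although the radial glia genes themselves ranged from -0.13 to 0.57 in log2 ratio. Of the 9 genes, 8 averaged 1 CPM (a gene's reads scaled to the library's total) or more over both libraries, the minimum used for counts of genes. All 8 had ratios above 1, against 48.4% of the 14557 genes at that minimum. Their median log2 ratio was 0.15, with a range of 0.06 to 0.37, against a median of -0.01 over all 14557 genes. By column totals the counting interval lay above 1 for 5 of the 8 and below 1 for 0, and it spanned 1 for 3. Over all genes at the minimum, 16.5% had intervals above 1 and 19.2% below 1. None of the 8 reached a ratio of 1.5 in either direction, a size that 2.53% of all genes passed upward and 5.23% downward. In the authors' deposited table, 0 of the 9 genes were marked as significant, against 9.46% of the 20421 genes. Every marked gene in the authors' deposited table was at least 1.5-fold higher or lower, and its adjusted p-value, by an unnamed test, was at most 0.0994. The mark thus goes with fold size as well as with the p-value. The 3476 genes with an adjusted p-value under 0.05 that were not marked include Gas1, Gli2 and Smo. Gli1 and Boc had adjusted p-values above 0.05 but under 0.0994.

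All 9 are protein-coding genes, and the positions are those of the table, which match GRCm38. Of the Gli genes, Gli1 (ENSMUSG00000025407) on chromosome 10 from 127329882 to 127341974 and Gli2 (ENSMUSG00000048402) on chromosome 1 from 118834132 to 119053619 lie on the minus strand and Gli3 (ENSMUSG00000021318) on chromosome 13 from 15463235 to 15730026 on the plus strand. The receptor genes Ptch1 (ENSMUSG00000021466) on chromosome 13 from 63508328 to 63573598 and Hhip (ENSMUSG00000064325) on chromosome 8 from 79965851 to 80058006, and the coreceptor genes Gas1 (ENSMUSG00000052957) on chromosome 13 from 60174405 to 60177365 and Boc (ENSMUSG00000022687) on chromosome 16 from 44485049 to 44558897, lie on the minus strand. The genes Smo (ENSMUSG00000001761) on chromosome 6 from 29735503 to 29761365 and Sufu (ENSMUSG00000025231) on chromosome 19 from 46396896 to 46488804 lie on the plus strand. Exons of 4 members overlap exons of a gene on the other strand: Gas1 as given below, Gli3 over 188 bases with Gm6556 (9 reads in each library), Gli1 over 62 bases with Arhgap9 (4 reads in FOXM1f/+;Nestin-Cre and 13 in WT) and 265 with Gm47200, and Hhip over 175 bases with Gm27820.

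Levels per length set the 9 genes in 1 order in both libraries, given as RPKM, the CPM per kilobase of merged exons. This order rests on the length used, which the intervals do not cover. By CPM, Smo lay above Gas1, at 78.9 against 77.0 in the FOXM1f/+;Nestin-Cre library and 70.8 against 63.0 in the WT library. Ptch1 had the longest merged exons, 14.2 kb. Per length, Gas1 was highest at 26.0 RPKM (24.7 to 27.4) in the FOXM1f/+;Nestin-Cre library and 21.3 RPKM (20.1 to 22.6) in the WT library. Smo, Boc and Sufu followed at 14.0, 10.4 and 9.38 RPKM in the FOXM1f/+;Nestin-Cre library and 12.6, 9.40 and 8.75 RPKM in the WT library. Gli2 and Gli3 came next at 5.26 and 4.57 RPKM in the FOXM1f/+;Nestin-Cre library and 4.31 and 4.21 RPKM in the WT library, above Ptch1 at 2.15 RPKM in the FOXM1f/+;Nestin-Cre library and 2.06 RPKM in the WT library. Gli1 had 1.93 RPKM in the FOXM1f/+;Nestin-Cre library and 1.49 in the WT library, and Hhip closed the order at 0.0679 RPKM in the FOXM1f/+;Nestin-Cre library and 0.0879 RPKM in the WT library. The intervals of the neighbours Boc and Sufu, and of Gli2 and Gli3, overlapped in both libraries. Those of Ptch1 and Gli1 overlapped in the FOXM1f/+;Nestin-Cre library but not in the WT library.

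**Figure D1:**
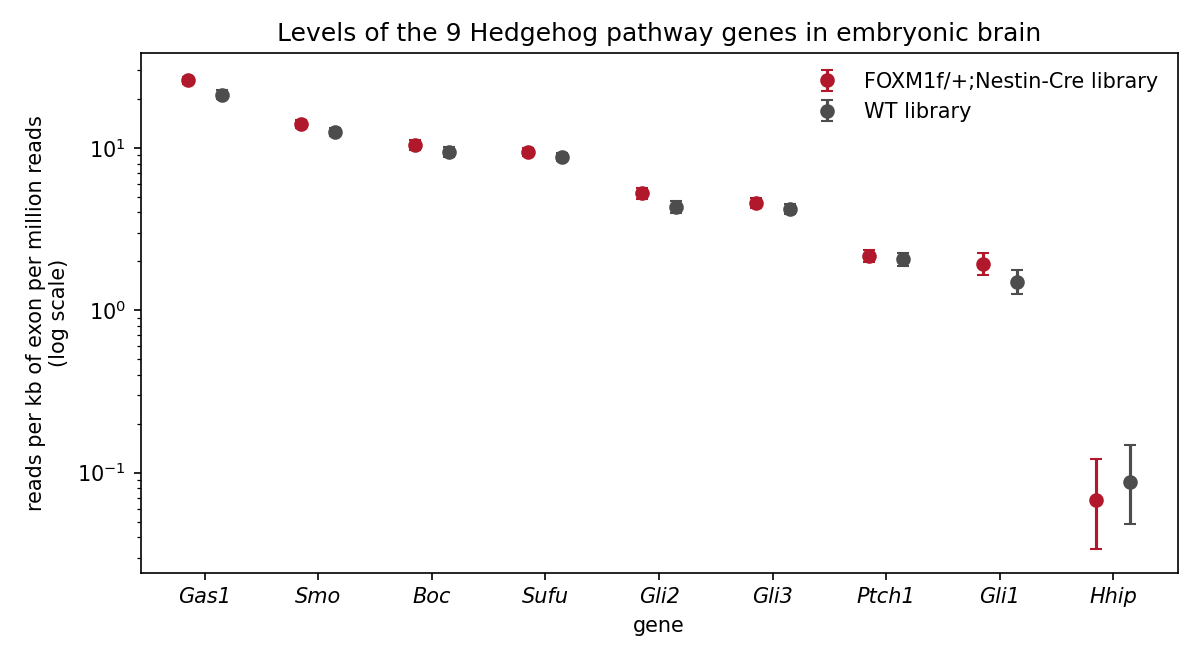
RPKM, the CPM per kilobase of merged exons (log scale), of the 9 genes in the FOXM1f/+;Nestin-Cre library (red, left) and the WT library (grey, right), where bars are 95% counting intervals. Gas1 lies highest at 26.0 in the FOXM1f/+;Nestin-Cre library and 21.3 in the WT library, and Hhip lowest in both.

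Ptch1, the ligand receptor and itself a textbook target of the pathway, had 544 reads (30.5 CPM) in the FOXM1f/+;Nestin-Cre library and 512 reads (29.2 CPM) in the WT library. Its ratio of 1.04 (0.92 to 1.18) was the nearest to 1 of the 8 genes.

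Hhip, a membrane protein that binds and sequesters the ligands and is another target, was barely read. It had 11 reads (0.616 CPM) in the FOXM1f/+;Nestin-Cre library and 14 reads (0.798 CPM) in the WT library. The ratio of 0.77 (0.32 to 1.83) shows no direction at this depth. Hhip was below the 1 CPM minimum and is therefore outside the counts of genes.

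The coreceptors Gas1 and Boc help the ligands reach Ptch1. Gas1, a membrane-anchored protein, had 1376 reads (77.0 CPM) in the FOXM1f/+;Nestin-Cre library and 1106 reads (63.0 CPM) in the WT library. This ratio, 1.22 (1.13 to 1.32), had the highest lower bound of the 9 genes, and it exceeded the ratios of 96.9% of 4710 genes within a factor of 2 of its mean CPM. Boc, an immunoglobulin superfamily member that is also a guidance receptor for axons, had 829 reads (46.4 CPM) in the FOXM1f/+;Nestin-Cre library and 734 reads (41.8 CPM) in the WT library. The ratio of Boc, 1.11 (1.004 to 1.23), had a lower bound that only just cleared 1. Gas1 is a single-exon gene, and 589 bases of it overlap exons of the lincRNA Gm48488 on the other strand, which had 5 reads in the FOXM1f/+;Nestin-Cre library and 1 in the WT library.

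Smo, the transducer that Ptch1 holds inactive, had 1410 reads (78.9 CPM) in the FOXM1f/+;Nestin-Cre library and 1242 reads (70.8 CPM) in the WT library, a ratio of 1.12 (1.03 to 1.20). Sufu, the cytoplasmic inhibitor that holds Gli proteins, had 1289 reads (72.2 CPM) in the FOXM1f/+;Nestin-Cre library and 1181 reads (67.3 CPM) in the WT library. The ratio of Sufu was 1.07 (0.99 to 1.16), so its interval spanned 1, though it lay just above 1 with TMM or RLE factors. The intervals of Smo, which activates the pathway, and of Sufu, which restrains it, overlapped.

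The Gli factors bind DNA through zinc fingers. Gli1, an activator and the most used transcript readout of the pathway, had 172 reads (9.63 CPM) in the FOXM1f/+;Nestin-Cre library and 131 reads (7.47 CPM) in the WT library. Its ratio of 1.29 (1.02 to 1.63) was the highest of the 9 genes and also the least precise of the 8. Ratios of this size were not rare at its depth, since 90.6% of 3010 genes of like level lay below it. Gli2, known as the main activator at the start of the response, had 645 reads (36.1 CPM) in the FOXM1f/+;Nestin-Cre library and 519 reads (29.6 CPM) in the WT library, a ratio of 1.22 (1.09 to 1.37). Among 5044 genes of like level, 93.8% had a lower ratio than Gli2. Gli3, known mainly as a repressor after cleavage of its protein, had 782 reads (43.8 CPM) in the FOXM1f/+;Nestin-Cre library and 708 reads (40.3 CPM) in the WT library. The ratio of Gli3 was 1.09 (0.98 to 1.20). RNA counts say nothing of how much Gli3 protein is cleaved.

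By RPKM, Gli1 made up 16.4% of the 3 Gli transcripts in the FOXM1f/+;Nestin-Cre library and 14.9% in the WT library. Gli2 made up 44.7% and Gli3 38.9% in the FOXM1f/+;Nestin-Cre library, against 43.0% and 42.0% in the WT library. The ratio of Gli1 over that of Gli3 was 1.19 (0.92 to 1.54), and that of Gli2 over Gli3 1.13 (0.96 to 1.32). Neither interval excludes an equal ratio, so a shift in the make-up of the family was not detectable at this depth.

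The 8 genes were compared with each other in all 28 pairs, each by the exact conditional interval of the ratio of their ratios. The interval left out 1 in 2 pairs, without any adjustment for the number of pairs. These were Gas1 over Ptch1 at 1.17 times (1.01 to 1.36) and Gas1 over Sufu at 1.14 times (1.02 to 1.28). Both lower bounds lay close to 1, and the pairs were chosen after values had been seen. Of 28 unadjusted intervals some can leave out 1 by counting error alone, so these 2 pairs do not establish a difference between members. Gli1 over Ptch1, the pair of classical targets, had the largest difference at 1.24 times, but with an interval of 0.95 to 1.61.

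**Figure D2:**
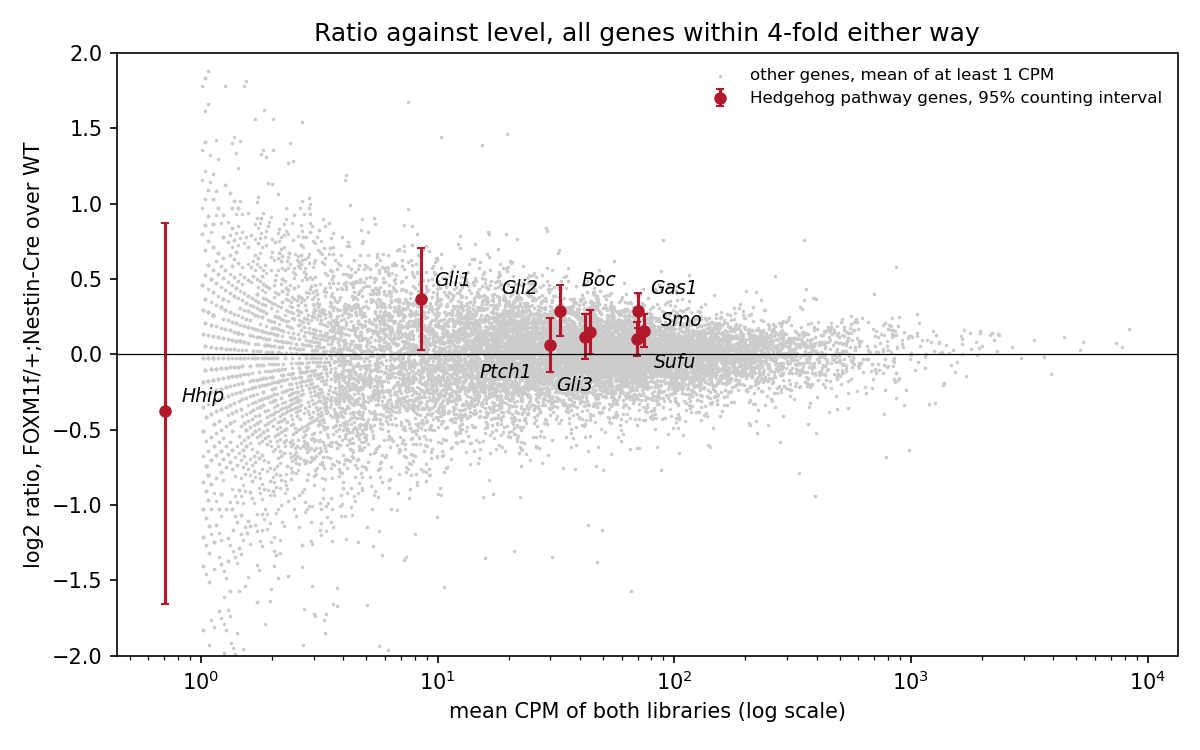
Log2 ratio of FOXM1f/+;Nestin-Cre over WT against mean CPM (log scale) for the 9 genes (red, with 95% counting intervals) and for all genes averaging 1 CPM or more (grey), of which 74 beyond 4-fold are not drawn. By column totals 8 of the 9 lie above 0, between 0.06 and 0.37, inside the grey cloud, and Hhip lies at -0.37 with the widest interval. Scaled to radial glia genes, 5 of the 8 lie below 0.

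In the authors' deposited table, which gives a p-value for 1 column against 1 column by an unnamed test, the adjusted p-value was 8.54e-06 for Gas1. It was 0.00375 for Gli2 and 0.0187 for Smo in the authors' deposited table, and 0.0668 for Gli1, 0.0870 for Boc, 0.144 for Sufu, 0.180 for Gli3 and 0.442 for Ptch1. These values cannot include the spread between animals.

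Promoter sequences are shown for Gas1, Smo and Gli2, the genes with the 3 lowest adjusted p-values in the authors' deposited table, because each is a place where a Gli factor or a FOXM1 complex could be looked for. The sequences are from RefSeq for GRCm38.p6, and each runs 5′ to 3′ over the 250 bases before the start site. They lie at chr13:60177536-60177785 on the minus strand, chr6:29735247-29735496 on the plus strand and chr1:119053620-119053869 on the minus strand. Capitals mark a match to the CHR element, described below.
Gas1 promoter: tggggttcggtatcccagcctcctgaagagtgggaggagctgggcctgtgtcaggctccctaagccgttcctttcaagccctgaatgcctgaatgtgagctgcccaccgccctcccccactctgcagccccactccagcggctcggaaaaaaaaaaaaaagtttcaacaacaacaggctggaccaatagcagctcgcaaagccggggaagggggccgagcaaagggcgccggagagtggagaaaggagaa
Smo promoter: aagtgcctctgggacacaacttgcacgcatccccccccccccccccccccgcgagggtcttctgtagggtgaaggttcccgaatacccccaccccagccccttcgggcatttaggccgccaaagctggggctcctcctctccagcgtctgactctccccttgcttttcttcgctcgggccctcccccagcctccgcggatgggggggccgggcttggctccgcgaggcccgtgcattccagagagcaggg
Gli2 promoter: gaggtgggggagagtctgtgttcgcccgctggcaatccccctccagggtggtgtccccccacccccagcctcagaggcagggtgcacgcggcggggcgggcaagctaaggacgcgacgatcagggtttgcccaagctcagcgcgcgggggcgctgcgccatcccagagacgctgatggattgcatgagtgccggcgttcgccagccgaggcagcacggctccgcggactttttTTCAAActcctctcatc

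Motifs were searched on both strands in the RefSeq windows from 250 bases before to 50 after the start, of which 7 members had 1 each. Gli1 and Boc had no window and were not searched. The windows of Gas1, Gli3 and Ptch1 do not hold the 5′ ends of the positions given above, at 60177365, 15463235 and 63573598, so those starts were not searched either. The Gli site GACCACCCA, and its core GACCACCC that it contains, had 0 matches in the 7 windows, while 0.253% and 0.807% of all 32851 windows held them. The CHR element TTTGAA, through which FOXM1 complexes are known to reach cell cycle promoters, matched in 1 of the 7 windows, that of Gli2, as TTCAAA on the printed strand. It occurs in 17.9% of all windows. The forkhead core TGTTTAC matched in 0 of the 7, against 3.65% of all windows. A match here is a match of letters in this window only. The 300-base windows of the 3 genes were rich in G and C, at 62.3% for Gas1, 67.7% for Smo and 67.3% for Gli2, against a median of 52.7% over all windows.

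Among the ligands, Shh, the one known for forebrain patterning, had 73 reads in the FOXM1f/+;Nestin-Cre library and 46 in the WT library. Its ratio of 1.56 (1.06 to 2.31) passed 1.5-fold by column totals, with a lower bound near 1, and Shh was marked as significant in the authors' deposited table. Exons of Shh overlap 9530036O11Rik over 446 bases (2 reads in each library) and Gm26894 over 361 bases, both on the other strand. The ligands Ihh and Dhh had 12 and 5 reads in the FOXM1f/+;Nestin-Cre library, against 11 and 5 in the WT library, too few for a direction. Of 9 genes for ligands and their release, 6 reached the minimum, with 1 interval above 1, 2 below and a median log2 ratio of -0.07. The lower ones were Disp2, related to the ligand transporter Disp1, at 0.85 (0.79 to 0.92), and Scube1, of the secreted family that takes up ligands, at 0.88 (0.82 to 0.96). Scube2, with 3 reads in FOXM1f/+;Nestin-Cre and 14 in WT, was below the minimum.

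Of 6 other receptors and coreceptors, 2 had intervals above 1 and 1 below, with a median log2 ratio of 0.17. Cdon, a coreceptor closely related to Boc, had 2324 reads in the FOXM1f/+;Nestin-Cre library and 1789 in the WT library. Its ratio of 1.28 (1.20 to 1.36) lay as high as that of Gli1 with a much narrower interval. The glypican Gpc4 was at 1.12 (1.01 to 1.24). Lrp2, a large receptor that binds Shh, had 61 reads in FOXM1f/+;Nestin-Cre and 45 in WT, a ratio of 1.33 (0.89 to 2.00).

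By column totals, the genes that act between Smo and Gli had ratios on both sides of 1. Of 18 cytoplasmic and ciliary regulators, 15 intervals spanned 1, 1 lay above and 2 below, and the median log2 ratio was -0.03. With radial glia genes setting the scale, all of the 18 but Evc and Efcab7 have ratios below 1. Evc, which binds Smo in the cilium, was at 1.20 (1.03 to 1.39), whereas the transport motors Kif3a and Dync2h1 were at 0.88 (0.82 to 0.94) and 0.84 (0.73 to 0.96). Kif7, the ciliary kinesin that organises Gli and Sufu, had 348 reads in FOXM1f/+;Nestin-Cre and 313 in WT and spanned 1 at 1.09 (0.93 to 1.28). On the other strand, 51 bases of its exons overlap Ticrr (437 reads in FOXM1f/+;Nestin-Cre and 300 in WT) and 877 overlap 9330171B17Rik. Of 13 genes for kinases and degradation of Gli, 2 intervals lay above 1, 4 below and 7 spanned it, with a median of -0.01. Over all genes at the minimum 16.5% lay above and 19.2% below. The catalytic subunits of protein kinase A, which marks Gli for processing, were both lower, Prkaca at 0.87 (0.83 to 0.92) and Prkacb at 0.90 (0.86 to 0.95). The casein kinase Csnk1a1 was at 1.08 (1.04 to 1.12) and the ubiquitin ligase scaffold Cul1 at 1.08 (1.03 to 1.14). Scaled to radial glia genes, the intervals of Csnk1a1 and Cul1 lie below 1 instead.

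**Figure D3:**
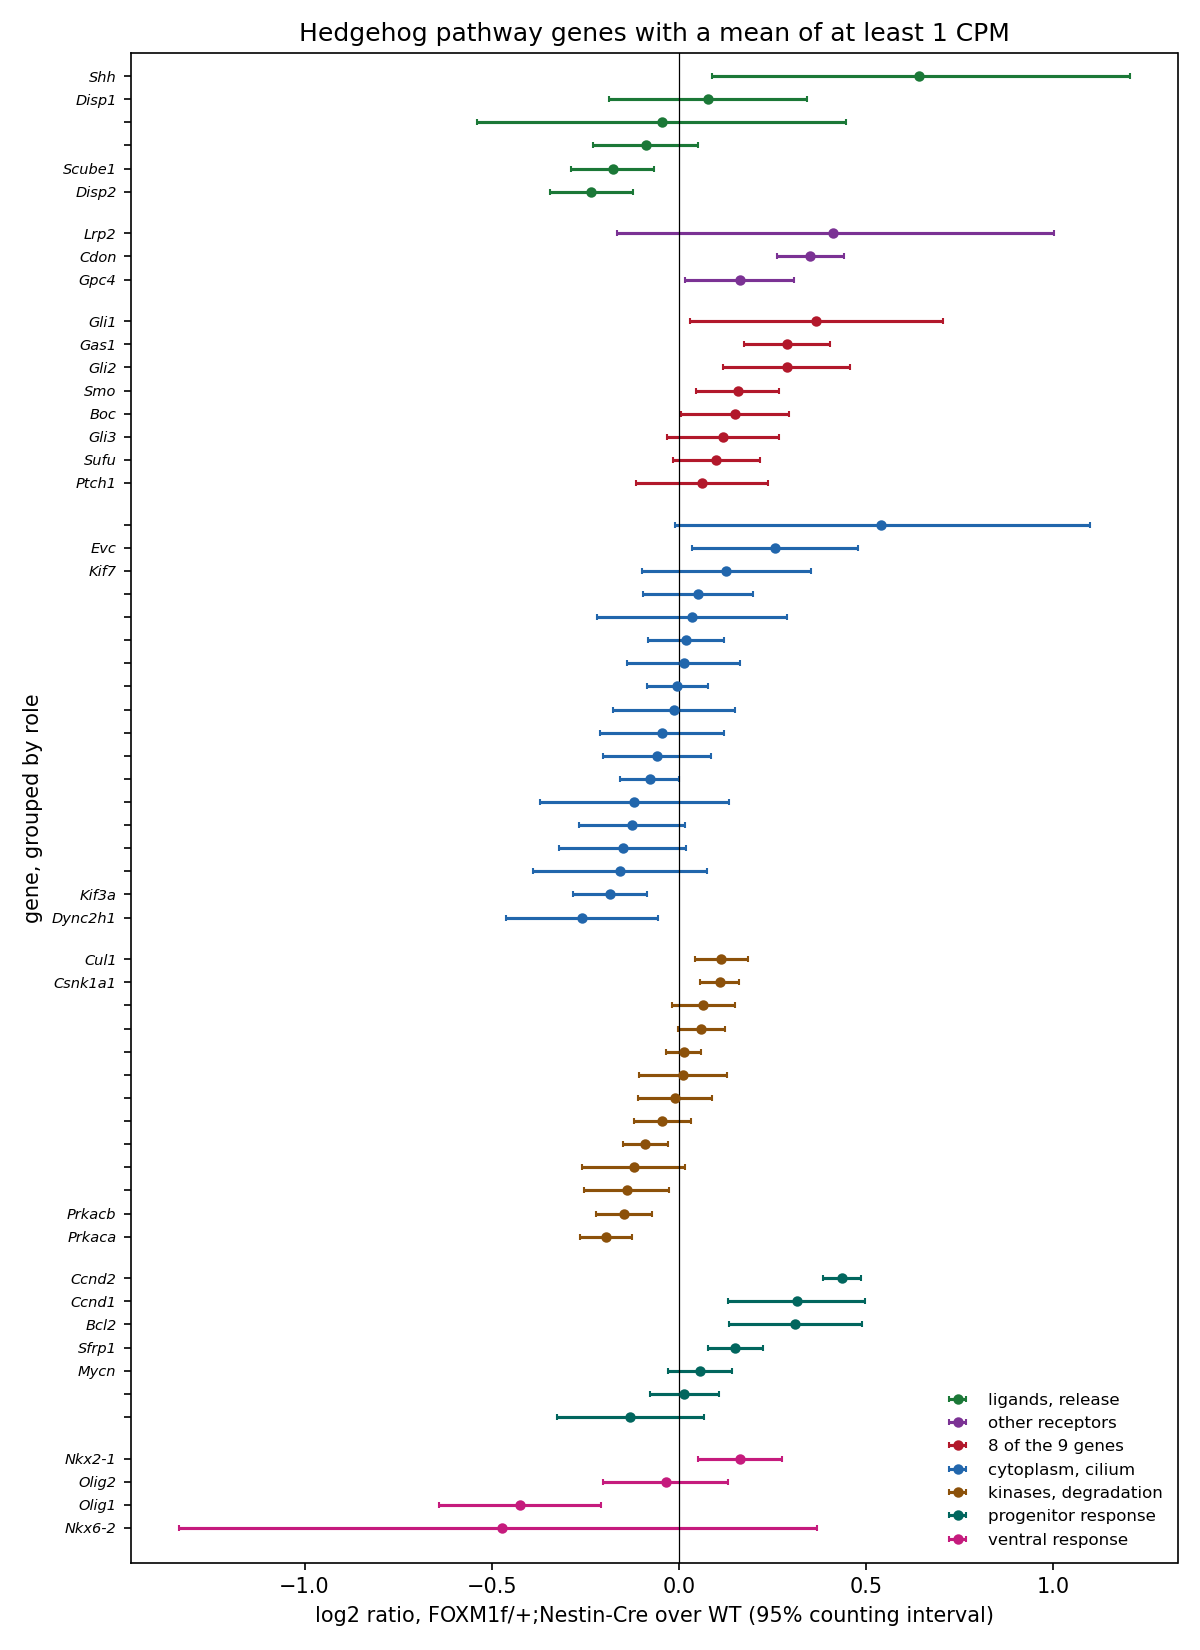
Log2 ratio of FOXM1f/+;Nestin-Cre over WT, by column totals, with 95% counting intervals for pathway genes averaging 1 CPM or more, coloured and grouped by role, where genes without a name are not described in the text and 3 of the 6 other receptors are drawn, without the 1 whose interval lay below 1. Intervals to the right of 0 include those of Shh, Cdon, Ccnd2 and 5 of the 8 members, with Boc and Gli1 only just past it. The log2 ratios of those 5, Gli1, Gli2, Smo, Boc and Gas1, turn negative when dividing cell genes set the scale. Of their intervals, only those of Smo and Boc then lie wholly left of 0. Intervals to the left of 0 include those of Prkaca, Prkacb, Kif3a and Dync2h1.

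Genes known to respond to the pathway in dividing progenitors lay higher in 4 of 7 cases by their intervals and lower in 0, and 3 spanned 1, against 16.5% of all genes above 1. Their median log2 ratio was 0.15, below the medians of dividing cell markers, at 0.40 with 8 of 8 intervals above 1, and of radial glia markers, at 0.25 with 8 of 11 above 1. The part of these cells in the ratios was not tested. The cyclin Ccnd2 had 7436 reads in the FOXM1f/+;Nestin-Cre library and 5401 in the WT library, a ratio of 1.35 (1.31 to 1.40), and Ccnd1 was at 1.24 (1.10 to 1.41). The survival gene Bcl2 was at 1.24 (1.10 to 1.40) and the Wnt modulator Sfrp1 at 1.11 (1.05 to 1.17), while Mycn, which drives progenitor growth, spanned 1 at 1.04 (0.98 to 1.10). These genes answer to other signals as well. Of 10 response genes of the ventral neural tube and forebrain, 4 reached the minimum. Nkx2-1, which specifies the medial ganglionic eminence, was at 1.12 (1.04 to 1.21), and Olig1, of oligodendrocyte precursors, at 0.75 (0.64 to 0.87). Olig2 had 587 reads in FOXM1f/+;Nestin-Cre and 591 in WT and Nkx6-2 22 reads in FOXM1f/+;Nestin-Cre and 30 in WT. Nkx6-1, below the minimum, had 8 reads in FOXM1f/+;Nestin-Cre and 1 in WT, a ratio of 7.86 (1.05 to 349).

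Of 12 dorsal forebrain patterning genes chosen for what is known of Gli3 mutants, 9 reached the minimum, with 3 intervals above 1, 2 below and 4 spanning it. The cortical factors Emx2 and Emx1 were at 1.31 (1.18 to 1.46) and 1.17 (1.11 to 1.25), and the homeobox gene Lhx5 at 1.21 (1.03 to 1.43). Emx1 and Emx2 are also among the dorsal progenitor markers. Bmp7, a signal of the dorsal midline, had 79 reads in the FOXM1f/+;Nestin-Cre library and 159 in the WT library, a ratio of 0.49 (0.37 to 0.64). The homeobox gene Msx1 had 25 reads in the FOXM1f/+;Nestin-Cre library and 82 in the WT library, a ratio of 0.30 (0.18 to 0.47). Bmp4, a related signal below the minimum, had 5 reads in FOXM1f/+;Nestin-Cre and 23 in WT. Some markers of tissue at the dorsal midline and around the brain were lower too. Choroid plexus genes summed to 28.3 CPM in FOXM1f/+;Nestin-Cre and 703 CPM in WT, of which Ttr held 9.91 and 641 CPM. The hem gene Lmx1a was at 0.42 (0.26 to 0.64), but 5 of the 6 hem intervals spanned 1. The meningeal collagen Col1a1 was at 0.32 (0.20 to 0.48). In its list of meninges and pericytes 4 of 7 intervals lay below 1, 2 spanned it and that of Foxc1 lay above, at 1.63 (1.12 to 2.39). The part of these tissues in the ratios of Bmp7, Msx1 and Bmp4 was not tested. The cortical hem signals Wnt2b, Wnt3a and Wnt8b had 39, 35 and 71 reads in the FOXM1f/+;Nestin-Cre library, against 35, 35 and 68 in the WT library.

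The table's own ontology column named the smoothened signaling pathway for a further 117 genes, of which 97 reached the minimum. Of these, 17 intervals lay above 1 and 16 below, 17.5% and 16.5%, close to the shares over all genes, and the median log2 ratio was 0.01. The list was added after the ratios had been seen.

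The members' median ratio lay between the medians of progenitor and of neuronal markers. Apical radial glia genes, which mark the cells where many of the members are known to be expressed, summed to 2514 CPM in the FOXM1f/+;Nestin-Cre library and 2058 in the WT library, with 8 of 11 intervals above 1, 0 below and a median log2 ratio of 0.25. Dividing cell genes summed to 1302 CPM in FOXM1f/+;Nestin-Cre and 1014 CPM in WT, with 8 of 8 intervals above 1 and a median of 0.40. Dorsal progenitor genes had 5 of 5 above 1 and a median of 0.31. Neuronal genes summed to 5790 CPM in FOXM1f/+;Nestin-Cre and 6287 CPM in WT, with 7 of 8 intervals below 1 and a median of -0.16. In bulk tissue, a different share of cells of a type and a different amount of RNA per cell cannot be told apart.

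When the median of the radial glia genes set the scale in place of column totals, every log2 ratio moved by -0.25. The median of the 8 members was then -0.10, with 0 intervals above 1 and 2 below, those of Ptch1 at -0.19 and Sufu at -0.15. On that scale Gli1, Gas1 and Gli2 were at 0.12, 0.04 and 0.04, and Smo, Boc and Gli3 at -0.09, -0.10 and -0.13. The members' median thus lay below that of the radial glia genes, with 3 of the 8 members above it. The radial glia median is the log2 ratio of Fabp7, in a list that ranged from -0.13 to 0.57 by column totals. The error of this scale is not in the intervals. Calls of the wider pathway and patterning genes rest on the scale too. After the same shift the intervals of Cdon and Ccnd2 stay above 1. Those of Shh, Gpc4, Evc, Nkx2-1, Ccnd1, Bcl2, Emx1, Emx2 and Lhx5 span 1, and that of Sfrp1 lies below 1.

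Markers of some other tissues also differed between the libraries. Over all genes at the minimum, 16.5% of intervals lay above 1 and 19.2% below 1. The cortical hem list, with 16.7% below 1, did not pass that share. Of the choroid plexus genes, 4 of 5 had intervals below 1. Genes of meninges and pericytes summed to 87.6 CPM in FOXM1f/+;Nestin-Cre and 111 CPM in WT, with 4 of 7 below 1 and 1 above. Cortical hem genes summed to 20.7 CPM in FOXM1f/+;Nestin-Cre and 25.3 CPM in WT, with 1 of 6 below 1, and endothelial genes to 124 CPM in FOXM1f/+;Nestin-Cre and 137 CPM in WT, with 2 of 6 below 1. Oligodendrocyte precursor genes summed to 68.6 CPM in FOXM1f/+;Nestin-Cre and 87.9 CPM in WT with 4 of 6 below 1, microglial genes to 25.8 CPM in FOXM1f/+;Nestin-Cre and 34.7 CPM in WT with 3 of 5 below 1, and erythroid genes to 664 CPM in FOXM1f/+;Nestin-Cre and 316 CPM in WT with 5 of 6 above 1. Medial ganglionic eminence genes, the main ventral markers, summed to 351 CPM in FOXM1f/+;Nestin-Cre and 366 CPM in WT. Of their 5 intervals 1 lay above 1 and 2 below, with a median log2 ratio of 0.03, so the list had no common direction. The part of these tissues in the members' ratios was not tested.

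**Figure D4:**
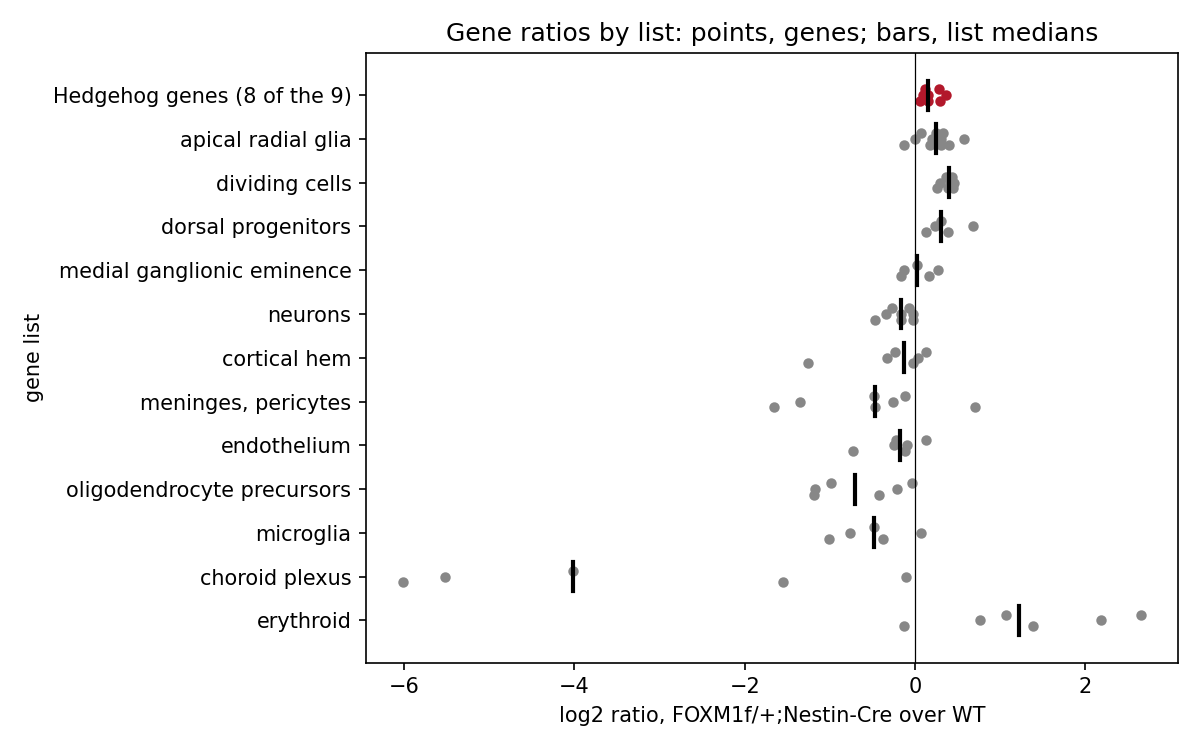
Log2 ratio of FOXM1f/+;Nestin-Cre over WT, by column totals, of each gene (points) averaging 1 CPM or more in the members' list (red) and in lists of cell type markers (grey), where black bars are list medians. The members' median of 0.15 (-0.10 when scaled to radial glia) lies below those of radial glia at 0.25, dorsal progenitors at 0.31 and dividing cells at 0.40, and above that of neurons at -0.16.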

How the data were processed

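RNA of embryonic day 15 brain was sequenced. Bowtie2 2.2.3, TopHat2 2.0.12 and HTSeq 0.6.0 and the genome mm9 are named, per the submitters' processing notes. Positions match GRCm38 instead: of 20388 identifiers found in GENCODE M21, 18699 (91.7%) had the same start and end. Not given in the sources used here are the annotation, strand and multi-mapping rules. Reads on exons shared with genes on the other strand (4 members, Shh and Kif7) thus cannot be assigned. Beyond the members, overlaps were looked up for Shh, Cdon and Kif7 only.

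Per the file headers, the authors' table holds 1 column of raw counts and 1 normalized column per genotype. The authors' normalized values are CPM, in which 0 reads stand as 0.5. Their deposited fold change divides FOXM1f/+;Nestin-Cre by WT, and the deposited log2 column is its logarithm. The test behind the deposited p-values is not stated.

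Members and lists were chosen with earlier results of these data known. The genes named were the 9 members, Foxm1, up to 4 per list whose interval left out 1, and genes that define a list. Other genes named, the tissue check and sex-linked genes, the ontology list, the member pairs, the comparison with genes of like level, the Gli shares, the motifs and the promoters shown were chosen after values had been seen. Some genes counted in the lists are not reported here by name. Marker lists are given as sums and counts. Ratios of CPM have exact conditional (Clopper-Pearson) 95% intervals, and levels exact Poisson intervals. Reads carry no molecular identifiers, so intervals cover counting error only. With 1 column per genotype no test was run. RPKM was computed here from merged GENCODE M21 exons. The intervals were run on simulated Poisson counts, the model they assume, so that run says nothing of the spread between animals or libraries. Python 3.11.15, SciPy 1.17.1 and edgeR 4.0.16 (TMM and RLE factors) were used. Alternatives were scaling, expression minimum and fold.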

Additional observations from a re-analysis of the deposited data

How the results depend on the processing

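With 1 column per genotype, headed F1 and C2, no paired analysis was possible and no replicate could be left out. TMM and RLE factors shift every log2 ratio alike, by 0.02 and 0.03, which turned the median of the kinase and degradation list to 0.0052 and 0.015. Without the expression minimum the median of the ventral response genes was -0.42, and with an average of 10 CPM or more it was -0.035, against -0.23. That of the dorsal patterning genes was -0.0027 without the minimum and 0.26 at 10 CPM, against 0.04. With TMM or RLE factors 6 members' intervals lay above 1, Sufu being the one added. RLE factors turned Tubb3 to a log2 ratio of 0.0039. Leaving plexus, erythroid and sex-linked genes out of the totals, a choice made after seeing the data, shifts every log2 ratio by 3.1e-05 and so tells nothing of those tissues' reads. Scaled to radial glia genes, the members' median was -0.10, with 0 intervals above 1 and 2 below, and Smo and Boc turned to -0.094 and -0.10. Scaled to dividing cell genes, a choice made after seeing the data that shifts every log2 ratio by -0.40, the members' median was -0.25, with 0 intervals above 1 and 5 below. Those 5 intervals were of Gli3, Ptch1, Smo, Sufu and Boc. The log2 ratios of Gli1, Gli2, Smo, Boc and Gas1 turned to -0.033, -0.11, -0.24, -0.25 and -0.11, and the intervals of Gli1, Gli2 and Gas1 spanned 1. Genes at least 1.5-fold higher and lower numbered 369 and 762, against 1893 and 2921 without the minimum, 34 and 86 at an average of 10 CPM or more, and 76 and 266 at 2-fold. None of the 8 members at the minimum reached 1.5-fold in any of these. Depth limits Hhip most, since with 11 reads in FOXM1f/+;Nestin-Cre and 14 in WT its interval reaches from 0.32 to 1.83.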
